A study of Mus musculus with 12 samples.

Results

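The creatine kinases Ckb, Ckm, Ckmt1 and Ckmt2, the lactate dehydrogenase subunits Ldha and Ldhb, and the oxygen carrier myoglobin (Mb) were followed through cardiac differentiation of mouse embryonic stem cells. They were chosen by name, as the isoforms that muscle is known to exchange as it matures, and every non-control probe assigned to them on the array was taken: 9 probes for 7 genes, out of 41174 probes. All 7 genes passed the filter on signal, among 20875 genes tested, but Ckm passed only through day 14 and Ckmt2 only through days 9 and 14. The study measured total RNA on 12 one-colour arrays in 3 groups of 4: cells labelled mESC, cells at day 9 of differentiation and cells at day 14. The labels describe plates coated with crosslinked elastin-like polypeptide (ELP), 2 days in embryonic stem cell medium without LIF, and then 12 days in Glasgow minimum essential medium (GMEM) with 2.5% serum replacement, 1% non-essential amino acids (NEAA) and 10 μM β-mercaptoethanol. No genetic change or cardiac differentiation factor is named for any group. The same growth and coating text, and the cell type "embryonic stem cells", stand on all 12 samples, the mESC group included, so the labels do not say how the mESC group itself was kept, nor name the cell line.

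Creatine kinases move a phosphate group between ATP and creatine. Ckb and Ckm encode the cytosolic brain and muscle subunits, and Ckmt1 and Ckmt2 the ubiquitous and the sarcomeric mitochondrial enzymes, the sarcomeric form being that of heart and skeletal muscle. Lactate dehydrogenase interconverts pyruvate and lactate and is a tetramer of A subunits (Ldha, abundant in glycolytic cells) and B subunits (Ldhb, abundant in adult heart), while myoglobin binds oxygen in heart and skeletal muscle fibres.

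The promoters of 5 members are shown because these genes moved in opposite directions or carry most of the matches to motifs known for muscle, mitochondrial and hypoxia control. RefSeq promoter windows of 250 bases before to 50 bases after a start site (build GRCm38.p6) were matched to all 7 members, with 11 windows in all. Each sequence runs 5′ to 3′ on the gene's strand, and capitals mark matches on either strand to the TATA motif TATAAA, the GC box GGGCGG, the hypoxia element cores ACGTG and GCGTG, the estrogen-related receptor (ERR) element TNAAGGTCA or the MEF2 consensus.
Ckb, chr12:111672289-111672588, minus strand: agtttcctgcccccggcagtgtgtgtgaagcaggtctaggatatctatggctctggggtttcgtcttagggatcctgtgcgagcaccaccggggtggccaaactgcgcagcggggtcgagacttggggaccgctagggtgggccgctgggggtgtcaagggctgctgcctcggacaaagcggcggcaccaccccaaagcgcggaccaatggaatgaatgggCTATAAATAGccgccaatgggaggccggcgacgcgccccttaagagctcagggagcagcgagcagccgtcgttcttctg
Ckmt1, chr2:121357526-121357825, plus strand, one of 2 windows: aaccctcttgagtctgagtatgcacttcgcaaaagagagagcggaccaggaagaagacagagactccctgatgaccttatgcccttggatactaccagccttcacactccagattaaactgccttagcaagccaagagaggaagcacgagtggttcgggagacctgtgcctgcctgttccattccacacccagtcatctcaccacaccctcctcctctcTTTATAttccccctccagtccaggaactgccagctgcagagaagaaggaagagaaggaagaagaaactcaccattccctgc
Ckmt2, chr13:91876836-91877135, minus strand: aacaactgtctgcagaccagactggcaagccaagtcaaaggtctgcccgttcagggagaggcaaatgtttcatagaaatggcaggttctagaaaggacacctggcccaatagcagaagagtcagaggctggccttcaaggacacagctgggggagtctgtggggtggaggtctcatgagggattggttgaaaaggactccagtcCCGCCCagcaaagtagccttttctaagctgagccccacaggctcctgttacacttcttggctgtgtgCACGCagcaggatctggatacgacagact
Ldha, chr7:46845554-46845853, plus strand, one of 2 windows: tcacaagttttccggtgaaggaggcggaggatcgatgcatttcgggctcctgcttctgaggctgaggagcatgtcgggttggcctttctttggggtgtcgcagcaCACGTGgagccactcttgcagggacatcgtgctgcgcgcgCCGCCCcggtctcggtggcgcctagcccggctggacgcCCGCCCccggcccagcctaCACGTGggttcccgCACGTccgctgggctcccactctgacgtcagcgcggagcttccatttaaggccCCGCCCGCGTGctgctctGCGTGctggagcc
Mb, chr15:77022738-77023037, minus strand, one of 3 windows: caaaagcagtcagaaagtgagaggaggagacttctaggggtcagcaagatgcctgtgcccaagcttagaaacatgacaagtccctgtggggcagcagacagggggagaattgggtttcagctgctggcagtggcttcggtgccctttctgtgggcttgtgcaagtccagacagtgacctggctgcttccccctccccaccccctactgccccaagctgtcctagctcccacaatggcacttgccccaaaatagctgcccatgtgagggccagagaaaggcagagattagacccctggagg

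The Ckb window held TATAAA at -28 relative to the start, and a MEF2 consensus match at -29 overlapped it. TATAAA was in 13.6% of all 32851 promoter windows and the MEF2 consensus in 3.19%. The Ckmt1 window shown had TATAAA at -31, and the second Ckmt1 window had none. The Ldha window shown had 3 GC boxes, 5 matches to ACGTG and 2 to GCGTG, counted over both strands, so that a CACGTG gives 2 matches. Those letters were in 35.7%, 19.6% and 32.4% of all windows. The Ckmt2 window had 1 GC box, 1 GCGTG and 4 E-boxes (CANNTG, found in 72.3% of windows and not capitalised), and the Mb window shown had 3 E-boxes and none of the capitalised motifs. The ERR element was in none of the 11 member windows and in 1.28% of all windows. The GC share was 67.3% with 30 CpG in the Ldha window and 63.0% with 22 CpG in the Ckb window, against medians of 52.7% and 7 CpG over all windows. A match is a description of letters in a window and no evidence that a factor binds there.

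Levels are log2 of the processed signal minus the log2 of that array's 75th percentile signal, so a level of 0 is the signal that 75% of non-control spots stay below; levels of different probes are not compared. A gene was called changed where limma's adjusted p was under 0.05 and the log2 change was at least 1. That reference signal lay between 345.9 and 386.2 on mESC arrays, between 395.1 and 438.4 on day 9 arrays and between 463.4 and 507.7 on day 14 arrays. On each array, 59.5% to 67.9% of probes were well above background. Each group was hybridised on its own slide and scanned as its own set, which means that a slide effect and a group effect cannot be told apart. The labels do not say that replicates were separate cultures, and the p-values then reflect nothing but array-to-array spread, which may be technical. In bulk RNA of this kind, fewer cells of a type and less RNA per cell cannot be told apart. All 10 cardiac muscle markers (Myh6, Tnnt2, Nkx2-5 and others) rose against mESC at both days, with a summed signal of 5.40 to 6.13 times the 75th percentile on mESC arrays, 186.6 to 365.7 on day 9 arrays and 197.9 to 259.5 on day 14 arrays. Markers of other cells also rose: 7 of 7 fibroblast markers at both days and 7 of 7 macrophage markers at day 14. At both days, 6 of 7 visceral endoderm and liver markers, 5 of 6 smooth muscle markers and 4 of 7 epithelial markers rose. Of 5 erythroid markers tested, 4 rose and 1 fell at day 9, and 2 rose and 1 fell at day 14. Of 6 endothelial markers, 4 rose and 2 fell at day 9, and 3 rose and 2 fell at day 14. Of 7 neuron and glia markers tested, 3 rose and 1 fell at both days. Over all genes, 20.0% were called higher at day 9 and 22.8% at day 14. The epithelial list was mixed, as Cdh1 and Cldn4 fell at both days, and the endoderm marker Amn fell at day 14. The smooth muscle sum was 9.91 to 10.6 on mESC arrays, 118.7 to 136.7 on day 9 arrays and 99.7 to 110.3 on day 14 arrays, and the epithelial sum 37.6 to 38.8, 168.8 to 186.4 and 85.6 to 93.3. All 6 pluripotency markers fell at both days.

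Against mESC, Mb and Ckmt2 rose and Ckmt1, Ckb and Ldhb fell at day 9, and the same genes were called in the same directions at day 14. Of the 7 genes, 2 were called higher and 3 lower at day 9, where 41.0% of all genes tested were called, 20.0% higher and 21.0% lower. At day 14, 2 were again higher and 3 lower, where 46.9% of all genes were called, 22.8% higher and 24.1% lower. The Ckmt2 call at both days rests on mESC readings below background and on a filter passed only through those days. Between day 9 and day 14, Mb, Ckm and Ckmt1 rose and no member fell, where 13.8% of all genes were called, 10.2% higher and 3.61% lower. The Ckm call rests on day 9 readings near background and on a filter passed only through day 14. The median log2 change of the 7 members was -0.82, -0.61 and 0.99 in these 3 comparisons, against -0.16, -0.19 and -0.09 over all genes. The scale matters for the last comparison: of the genes called between the days, 73.8% were higher with the 75th percentile and 60.5% with the array median as the reference, which moved the median change of all genes from -0.09 to -0.26. For day 14 against mESC the array median moved it from -0.19 to -0.42.

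**Figure D1:**
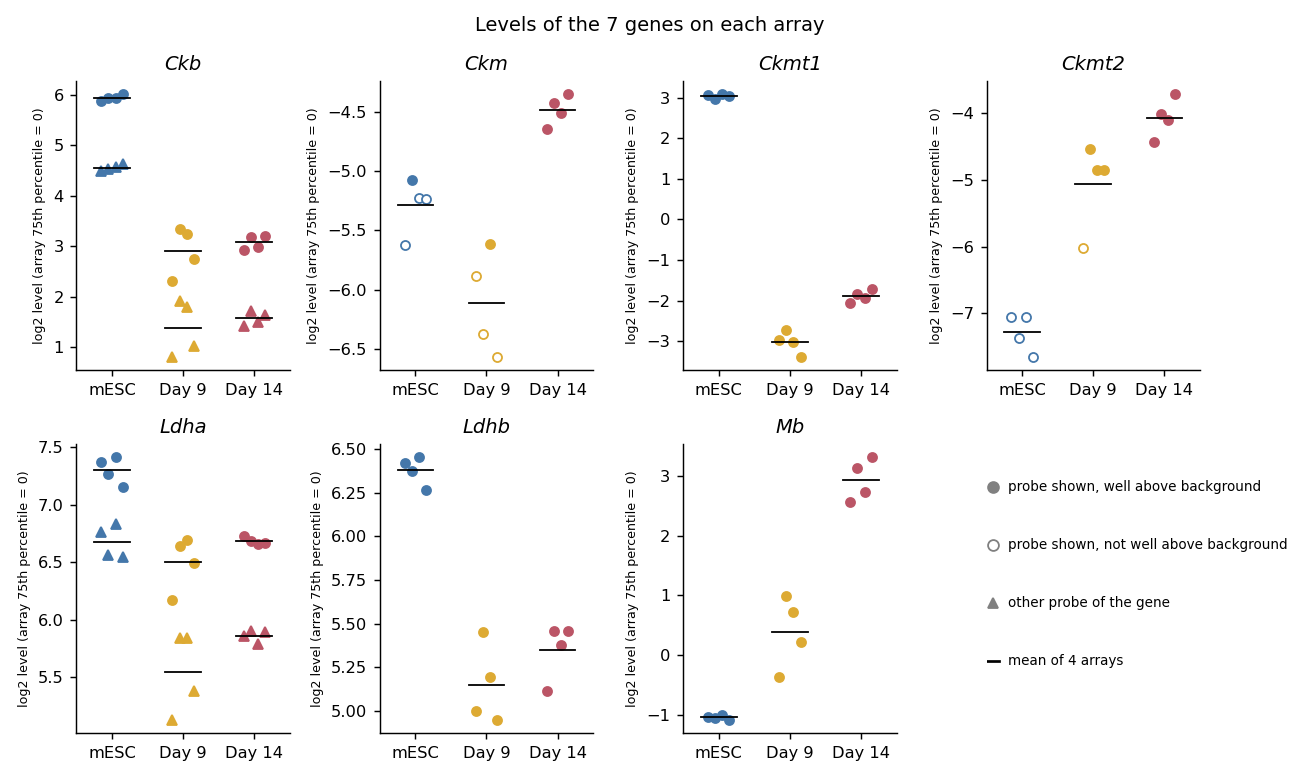
Level of each of the 7 genes on every array (log2 signal relative to the array's 75th percentile; circles are arrays, triangles a second probe, bars means of 4, open points arrays where the probe was not well above background; each panel has its own scale). Mb climbs from about -1.04 in mESC to 2.94 at day 14, Ckb and Ckmt1 drop from mESC to day 9, and the open points lie in the Ckm and Ckmt2 panels.

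Ckb, the brain-type cytosolic subunit, was lower in all differentiated arrays. Its level was 5.88, 5.93, 5.94 and 6.01 in the 4 mESC arrays, 2.31, 3.35, 3.25 and 2.74 at day 9, and 2.93, 3.18, 2.98 and 3.20 at day 14. Every mESC array was above every differentiated array, and the day 9 arrays spread around those of day 14. The log2 level fell by 3.03 ± 0.19 at day 9 (SE, n = 4 arrays per group, adjusted p = 2.8e-08, 8.16-fold) and by 2.86 ± 0.19 at day 14 (adjusted p = 3.9e-08, 7.28-fold). Between the days the change was 0.16, with a 95% interval from -0.26 to 0.58 (adjusted p = 0.472). A second Ckb probe gave -3.16, -2.98 and 0.18 in the same 3 comparisons.

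Ckm, the muscle-type cytosolic subunit, stayed near the detection limit. Its level was -5.62, -5.07, -5.22 and -5.23 in mESC, -5.88, -6.37, -5.61 and -6.57 at day 9, and -4.64, -4.43, -4.51 and -4.35 at day 14. The probe was well above background on 1 mESC array, 1 day 9 array and all 4 day 14 arrays, and only the day 14 arrays stood clear of the rest. The change from day 9 to day 14 was 1.62 ± 0.19 (adjusted p = 2.41e-05), which was called. Ckm passed the signal filter only through day 14, the higher group, so this p-value is not free of that selection. The change was 0.52 with an adjusted p of 0.204 when the background was corrected by normexp. The normexp offset of 50 exceeds the mean Ckm signal in mESC, at day 9 and at day 14 (9.43, 6.27 and 21.5). That setting therefore cannot decide the call. Against mESC the changes of -0.82 ± 0.19 at day 9 and 0.80 ± 0.19 at day 14 were under the size limit (adjusted p = 0.00203 and 0.0022). Ckm is also the main cytosolic isoform of skeletal muscle, and the summed signal of the 8 skeletal muscle markers tested was 3.07 to 3.28 on mESC arrays, 11.2 to 23.9 on day 9 arrays and 18.3 to 22.9 on day 14 arrays. Against mESC, 4 of these 8 markers rose and 3 fell at day 9 (Myog, Myh3 and Actn3), where 20.0% of all genes were called higher and 21.0% lower. At day 14, 5 rose and 2 fell (Myh3 and Actn3). Of the 10 markers listed, 3 rose from day 9 to day 14 (Myog, Myh3 and Tnnt3), where 10.2% of all genes were called higher. Myf5 was not well above background on any array and Pax7 on only 1 mESC array. The part of such cells in the Ckm signal was not tested.

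Ckmt1, the ubiquitous mitochondrial form, had the largest change of the 7 genes. Its level was 3.07, 2.97, 3.09 and 3.05 in mESC, -2.96, -2.74, -3.01 and -3.39 at day 9, and -2.05, -1.85, -1.93 and -1.72 at day 14. The 3 groups did not overlap, with day 14 between the other two, and the probe was above background on all 12 arrays. It fell by 6.07 ± 0.12 at day 9 (SE, n = 4, adjusted p = 1.61e-12, 67.2-fold) and by 4.93 ± 0.12 at day 14 (adjusted p = 6.43e-12, 30.5-fold); with normexp these values were -4.62 and -3.89. It then rose by 1.14 ± 0.12 from day 9 to day 14 (adjusted p = 9.18e-06, 2.20-fold), a call that depends on the processing, since the change was 0.97 with median scaling and 0.73 with normexp.

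Ckmt2, the sarcomeric mitochondrial form, was not well above background on any mESC array and appeared in the differentiated groups. Its level was -7.06, -7.37, -7.05 and -7.65 in mESC, -6.02, -4.54, -4.85 and -4.85 at day 9, and -4.44, -4.02, -4.11 and -3.72 at day 14. The probe was well above background on 3 day 9 arrays and all 4 day 14 arrays. Day 9 replicate 1 was the lowest of the differentiated arrays, and it is also the differentiated array with the lowest cardiac marker sum (186.6). Against the lowest signal that counts as well above background, Ckmt2 was at least 1.23-fold higher at day 9 and at least 2.44-fold higher at day 14. The calls come from the fitted changes of 2.22 ± 0.29 (adjusted p = 2.03e-05) and 3.21 ± 0.29 (adjusted p = 6.67e-07), which rest on mESC values below background and do not test those bounds. Ckmt2 also passed the signal filter only through days 9 and 14, the higher groups, so these p-values are not free of that selection. With normexp the fitted changes were 0.11 (adjusted p = 0.793) and 0.62 (adjusted p = 0.0621), and neither was called. The normexp offset of 50 exceeds the mean Ckmt2 signal in mESC, at day 9 and at day 14 (2.35, 13.2 and 28.9). That setting therefore cannot decide these calls. The change between the days was 0.99 ± 0.29 (adjusted p = 0.011), just under the size limit of 1; it was 1.00 to 1.16, and called, without replicate 2, 3 or 4 of day 9 or replicate 1 or 3 of day 14, and 0.67 without replicate 1 of day 9.

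Ldha, the A subunit of lactate dehydrogenase, had log2 differences under 1 in all 3 comparisons. Its level was 7.37, 7.26, 7.42 and 7.15 in mESC, 6.17, 6.64, 6.69 and 6.50 at day 9, and 6.73, 6.69, 6.66 and 6.67 at day 14. All mESC arrays were above all differentiated arrays, and the day 14 arrays lay within 0.1 of each other. The changes against mESC were -0.80 ± 0.10 at day 9 (adjusted p = 1.81e-05) and -0.61 ± 0.10 at day 14 (adjusted p = 0.000152), both under the size limit. With quantile normalization they were -0.31 and -0.0018. The second Ldha probe passed the size limit at day 9, with -1.13 ± 0.15 (adjusted p = 2.01e-05), and read -0.82 at day 14, so the probes disagreed on the day 9 call.

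Ldhb, the B subunit, fell at both days. Its level was 6.42, 6.37, 6.45 and 6.26 in mESC, 5.00, 5.45, 5.20 and 4.95 at day 9, and 5.11, 5.46, 5.38 and 5.46 at day 14. Every mESC array was above every differentiated array, and days 9 and 14 overlapped. It fell by 1.23 ± 0.11 at day 9 (SE, n = 4, adjusted p = 9.3e-07, 2.34-fold) and by 1.03 ± 0.11 at day 14 (adjusted p = 4.17e-06, 2.04-fold). The day 14 value sits at the size limit: it was -0.95 without day 14 replicate 1, -0.99 with normexp and -0.50 with quantile normalization, none of them called. Under quantile normalization the day 9 value was -0.82 and was not called either. Between the days Ldha changed by 0.19 (95% interval -0.04 to 0.41) and Ldhb by 0.20 (95% interval -0.05 to 0.45), neither called.

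Myoglobin rose at each step. The Mb level was -1.03, -1.05, -1.0 and -1.08 in mESC, -0.37, 0.99, 0.72 and 0.22 at day 9, and 2.56, 3.13, 2.73 and 3.32 at day 14. The mESC arrays lay within 0.1 of each other, and the 3 groups did not overlap. The rise was 1.43 ± 0.26 at day 9 (SE, n = 4, adjusted p = 0.000314, 2.70-fold), 3.98 ± 0.26 at day 14 against mESC (adjusted p = 3.53e-08, 15.8-fold) and 2.55 ± 0.26 from day 9 to day 14 (adjusted p = 7.55e-06, 5.84-fold). Across the 4 day 9 arrays, Mb had the same order as the cardiac marker sum, which was 186.6, 365.7, 345.6 and 261.9. The skeletal muscle sum (11.2, 23.9, 21.8 and 14.7), the visceral endoderm and liver sum (39.5, 66.4, 52.1 and 45.4) and the Ckb level had that order as well, and the fibroblast sum (417.0, 236.1, 301.5 and 399.1) had the reverse, as did the macrophage and erythroid sums. From day 9 to day 14, 1 of the 10 genes of the cardiac list (Nkx2-5) fell and none rose. Of all genes, 3.61% were called lower and 10.2% higher in that comparison. At an unadjusted p under 0.05 in limma, 3 cardiac genes were higher and 4 lower. The median change of the list was -0.37, against -0.09 over all genes. The part of cell number in the Mb change was not tested.

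**Figure D2:**
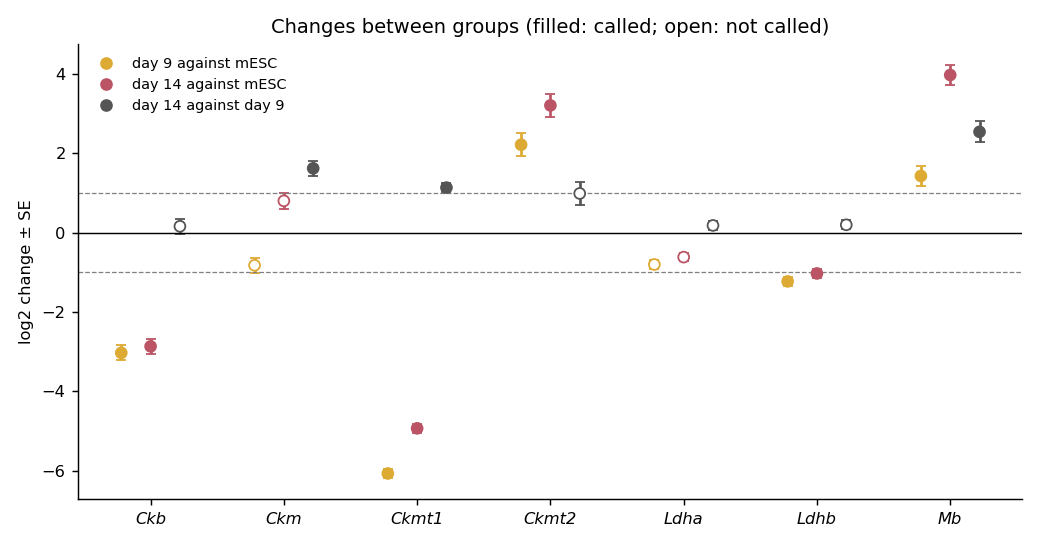
Log2 change of each gene in the 3 comparisons, with SE (n = 4 arrays per group); filled points were called, open points were not, and dashed lines mark a change of 1. Ckmt1 lies lowest at -6.07 and Mb highest at 3.98, and the Ldha points stay inside the dashed lines.

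Because each array measured both isoforms of a pair, the log2 difference between their probes was taken within each array and its change between groups was tested by an exact two-sided permutation test (4 against 4 arrays, smallest p 0.0286), adjusted over all 9 tests; p-values are printed only where both probes were well above background on at least 3 arrays of each group. Its absolute size depends on the probes, and only its change between groups is read. Ckmt2 minus Ckmt1 read 8.29 higher at day 9 and 8.14 higher at day 14 than in mESC, where no array had Ckmt2 well above background, so these values are given with no p. With normexp they were 4.73 and 4.52, and the Ckmt1 change itself was also smaller then. That setting adds an offset of 50, above the mean Ckmt2 signal in mESC, at day 9 and at day 14 (2.35, 13.2 and 28.9). The mean Ckmt1 signal at day 9 was 52.1, close to that offset. The normexp values therefore cannot tell how large the change was. Between the days the difference changed by -0.15 (exact permutation p = 0.686, adjusted 0.771). The cytosolic pair, Ckm minus Ckb, read 2.21 higher at day 9 and 3.67 higher at day 14 than in mESC, and 1.46 higher at day 14 than at day 9. Ckm was well above background on only 1 mESC and 1 day 9 array, so these values too carry no p, and the day 9 value sets a Ckm reading of -0.82 against a Ckb change of -3.03. The value between the days was 0.43 under normexp, whose offset of 50 also exceeds the mean Ckm signal in every group. The Ldhb and Ldha probes were above background on all 12 arrays. Ldhb minus Ldha changed by -0.43 at day 9 and -0.41 at day 14 (exact permutation p = 0.0286, adjusted 0.0367, for each). The Ldhb change was thus more negative than that of Ldha on the chosen probes. The chosen Ldha probe was the brighter one, with signals of 54911 to 59107 on mESC arrays against 34927 to 39478 for the second. Whether so bright a signal was compressed was not tested, so these p-values hold for the chosen probes only. The second Ldha probe was nearer to Ldhb, with -1.13 at day 9 and -0.82 at day 14 against -1.23 and -1.03 for Ldhb. With the mean of both Ldha probes the day 9 change of Ldhb minus Ldha was -0.26 (exact permutation, adjusted p = 0.0735), and the day 14 change was -0.31. Between the days it was 0.02 (exact p = 1).

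**Figure D3:**
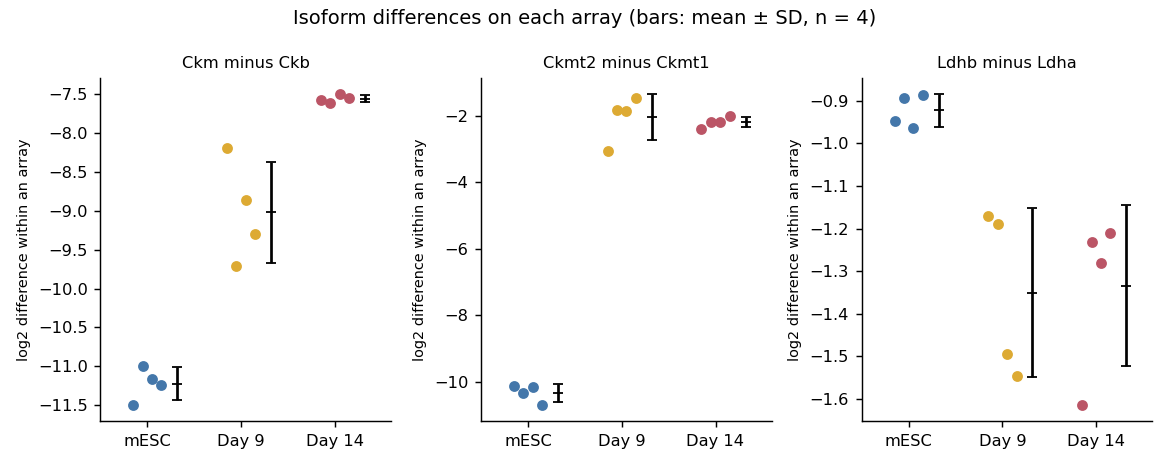
Within-array log2 difference between the 2 isoforms of each pair, by group (points are arrays, bars are means of 4). The Ckmt2 minus Ckmt1 difference climbs from -10.33 in mESC to -2.04 at day 9, Ckm minus Ckb climbs through all 3 groups with Ckm mostly below background before day 14, and Ldhb minus Ldha drops from -0.92 to -1.35.

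The other genes of creatine and adenylate metabolism moved in both directions. Of 16 genes tested, 3 rose and 3 fell at day 9, where 41.0% of all genes were called. At day 14, 3 rose and 5 fell, where 46.9% of all genes were called. The list had median changes of -0.23 and -0.48 against -0.16 and -0.19 over all genes. Both creatine synthesis enzymes rose: Gatm was at least 3.74-fold higher at day 9 and at least 19.1-fold higher at day 14 than in mESC, where its probe was not well above background, and Gamt rose by 2.74 ± 0.06 and 2.88 ± 0.06. Gatm was also higher at day 14 than at day 9, by 2.35 ± 0.14. Liver is a known site of creatine synthesis, and the summed signal of the visceral endoderm and liver markers was 0.424 to 0.502 on mESC arrays, 39.5 to 66.4 on day 9 arrays and 192.1 to 207.2 on day 14 arrays. The part of such cells in the Gatm and Gamt values was not tested. The creatine transporter Slc6a8 fell by 1.80 ± 0.05 and 1.19 ± 0.05. Among the adenylate kinases, which balance AMP, ADP and ATP, the mitochondrial Ak3 rose by 2.08 and 1.98 while Ak4 fell by 3.91 and 2.86 and then rose by 1.04 from day 9 to day 14. Ak1, the cytosolic form of muscle, had changes of 0.24 and -0.06. The AMP deaminase Ampd1 fell by 2.03 and 2.02, and at day 14 Slc25a5, an ADP/ATP carrier, fell by 1.14. Ampd1 was well above background on only 2 arrays at day 9 and 1 at day 14, so its sizes rest partly on readings near background. Gatm and Ak4 were the only genes of this list called between the days, where 13.8% of all genes were called.

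Among genes that handle lactate and pyruvate, several lactate dehydrogenase relatives and pyruvate dehydrogenase subunits fell. Of 22 genes tested of 24 listed, 3 rose and 9 fell at day 9, and 3 rose and 8 fell at day 14, where 20.0% and 21.0% of all genes were called higher and lower at day 9 and 22.8% and 24.1% at day 14. The median change of the list was -0.51 at both days, against -0.16 and -0.19 over all genes. Ldhc, the testis-type lactate dehydrogenase subunit, was above background on all mESC arrays and on no differentiated array, and was at least 111-fold lower at day 9 and at least 126-fold lower at day 14. Ldhd, which oxidises D-lactate, fell by 3.16 ± 0.37 and 3.18 ± 0.37, and Ldhal6b by 2.41 and 2.13. Ldhd was well above background on only 2 arrays at day 9 and 2 at day 14, so its sizes rest partly on readings near background. Around the pyruvate node, the pyruvate kinase Pkm fell by 1.62 and 1.49 and pyruvate carboxylase Pcx by 1.13 and 1.16. Of the pyruvate dehydrogenase subunits, Pdha1 fell by 1.93 and 1.85 and Dlat by 1.02 and 1.18. At day 14 Pdhb fell as well, by 1.17. Of the kinases that switch pyruvate dehydrogenase off, Pdk1 had a change of 0.68 ± 0.13 at day 9, which was not called, and rose by 1.79 ± 0.13 at day 14 against mESC. Pdk4 fell by 1.73 ± 0.22 at day 9. Both kinases rose from day 9 to day 14, Pdk1 by 1.11 ± 0.13 and Pdk4 by 1.25 ± 0.22. The phosphatase Pdp1 rose by 1.40 and 1.31. Of the lactate transporters, Slc16a7 was at least 2.50-fold higher at day 9 and at least 7.89-fold higher at day 14 than in mESC. Slc16a1 had changes of -0.26 and -0.57 and Slc16a3 of -0.16 and 0.50, none of them called. Emb, a partner protein of these transporters, rose by 2.70 at day 9 and fell by 2.52 from day 9 to day 14. Of the 22 genes, 4 rose (Slc16a7, Pdk1, Pdk4 and Pklr) and 1 fell (Emb) between the days, where 13.8% of all genes were called.

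Among 9 other globin and haem genes, 2 rose and 1 fell at both days, where 41.0% and 46.9% of all genes were called. Their median changes were 0.29 and 0.16 against -0.16 and -0.19 over all genes. Cytoglobin (Cygb), a globin of fibroblast-like cells, rose by 3.46 ± 0.17 and 3.66 ± 0.17, and the hypoxia-inducible factor subunit Epas1 by 1.55 and 1.32. The haem oxygenase Hmox1 fell by 1.19 and 1.22. Neuroglobin (Ngb) had changes of 0.38 and 0.44, which were not called. Beside the Cygb values, the summed fibroblast marker signal was 0.962 to 1.03 on mESC arrays, 236.1 to 417.0 on day 9 arrays and 534.2 to 589.7 on day 14 arrays, and its part in them was not tested. Between the days limma called 0 of the 9 genes, with 2 higher and 1 lower at an unadjusted p under 0.05, where 13.8% of all genes were called.

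Of 17 regulators known for muscle and mitochondrial genes, 16 were tested, of which 6 rose and 4 fell at day 9, where 41.0% of all genes were called, and 7 rose and 3 fell at day 14, where 46.9% were. The list's median change was -0.24 at day 9 and 0.63 at day 14, against -0.16 and -0.19 over all genes, so at day 9 the median was below 0 although more genes were called higher than lower. Mef2c, a muscle transcription factor, was at least 71.0-fold higher at day 9 and at least 63.9-fold higher at day 14, and the cardiac and smooth muscle coactivator Myocd at least 61.4-fold and at least 32.1-fold. Of the estrogen-related receptors, which control energy metabolism genes, Esrrg rose by 6.01 ± 0.25 and 4.57 ± 0.25. The Esrrg probe had a mean level of -7.31 in mESC, as low as probes not well above background there. The sizes of these rises therefore rest on mESC readings near background. Esrrb, also a stem cell factor, fell by 6.36 ± 0.13 and 8.12 ± 0.13, and Esrra had changes of -0.44 and -0.00. The coactivator Ppargc1a rose by 2.19 ± 0.23 and 2.56 ± 0.23, Mef2a by 2.49 and 2.79, and Ppara by 1.87 at day 14. Nrf1 fell by 1.11 and 1.27 and Mef2b by 2.22 and 2.57. From day 9 to day 14, Ppara rose by 1.20, Ppargc1b by 1.03 and Myog was at least 8.76-fold higher, while Esrrb fell by 1.76 and Esrrg by 1.44.

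**Figure D4:**
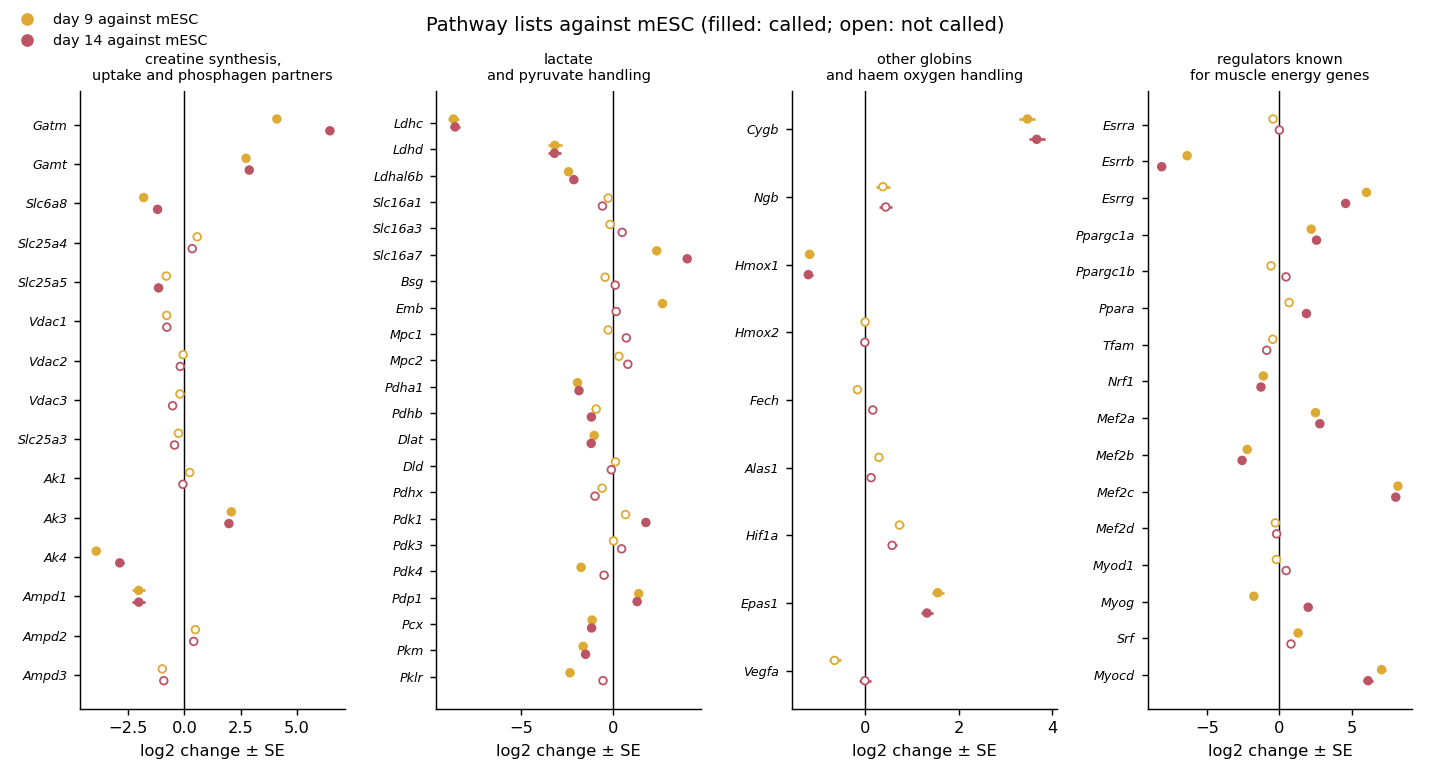
Log2 change against mESC (with SE, n = 4 arrays per group) of genes in the 4 lists, at day 9 and day 14; filled points were called and open points were not. Gatm and Gamt lie to the right in the first panel, Ldhc farthest left in the second, Cygb farthest right in the third, and Mef2c and Esrrb at opposite ends in the fourth.

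The genes whose levels followed each member most closely were found by Pearson's r over the 12 arrays, across 15044 named genes. Since the arrays form 3 groups on 3 slides, r mostly reflects the group means and is given as a description. For Ckb they were Chchd10 (r = 0.997) and Nr4a1 (r = 0.997), for Ckmt1 Mlxipl (r = 0.999) and Pcsk6 (r = 0.999), and for Ckmt2 Lgr5 (r = 0.994) and H2bc21 (r = 0.993). For Ldha they were the glycolytic enzyme Aldoa (r = 0.990) and Mif (r = 0.986), and for Ldhb Nudt8 (r = 0.993) and Fzd9 (r = 0.989). For Mb it was Fgl2 (r = 0.997), whose mean level was -5.90 in mESC, -3.92 at day 9 and -0.68 at day 14. Ckm had the lowest values, with Slc7a2 (r = 0.980) and Wfikkn2 (r = 0.966). Ckm was not well above background on most mESC and day 9 arrays, and Slc7a2 had mean levels of -5.73 and -6.67 there. In mESC, Lgr5 (-7.38) and Fgl2 (-5.90) were low as well. The r values of these genes therefore rest partly on readings near background. Among the members themselves, Ckb, Ckmt1, Ldha and Ldhb ran together (r from 0.933 to 0.979), Ckmt2 ran with Mb (r = 0.923), and Ckm had an r of 0.575 with Mb and of 0.238 or less with the others.

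**Figure D5:**
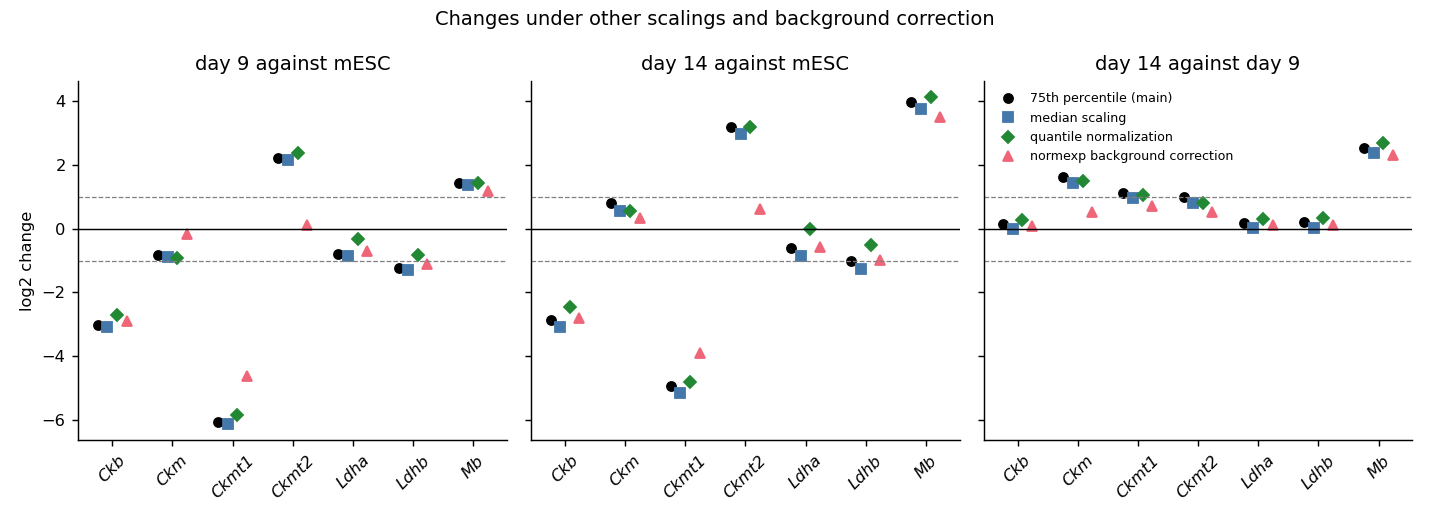
Log2 change of each gene in each comparison with the 75th percentile, median scaling, quantile normalization and normexp background correction (points); dashed lines mark a change of 1. Under normexp the day 9 change of Ckmt2 drops from 2.22 to 0.11, while Ckb, Ckmt1 and Mb keep their direction and call against mESC under all 4.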

How the data were processed

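The deposited files hold one-colour (Cy3) scanner intensity values of 12 arrays, from Agilent Feature Extraction 12 per the submitters' processing notes; the processed intensity is background-subtracted and spatially detrended, with array annotation on mm9, per the file headers. The deposited series table holds the same linear intensity values: 0 of 540216 differed from the scanner files' processed signal by more than a relative 1e-06. The deposited flags gave which probes were well above background. Probes were named through their accessions with RefSeq.

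Spots of a probe were averaged after log2 of the processed signal minus each array's 75th percentile over non-control spots. A probe was tested where at least 3 of 4 arrays of a group were well above background (28385 probes), and where a gene had several tested probes, the one with the highest mean level represented it. limma 3.58.1 in R 4.3.3 fitted 3 group means over 12 arrays, with Benjamini-Hochberg adjustment over 20875 genes, and was tested on simulated data. "At least" folds set the bright group's mean against the lowest signal well above background in the dim group. Array number (4 per group) limits the precision. Saturation was flagged for 0 probes of the members, which does not test for compression of bright signals. Alternatives were normexp (offset 50), median scaling, quantile normalization, other filters and probe rules, the replicate block and each array left out. Members, gene lists and naming rule (all members, the 2 genes most like each, called list genes and some fixed ones) were chosen with earlier results of these data known; 2 genes that the rule names are not reported here.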

Additional observations from a re-analysis of the deposited data

How the results depend on the processing

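Of 399 recomputed changes of the 7 genes, 382 kept their direction and side of the threshold, 9 lost a call, 6 gained one and 2 changed sign without being called. Part of the 399 could hardly differ. The deposited series values are identical, and the other filters, the replicate block and other estimates of the spread returned the same log2 changes. The count of 382 therefore says little about how stable the changes are. The number of genes called was 4750, 5730 and 1217 with normexp (the 2 comparisons with mESC, then that of the days) and 5483, 6430 and 1305 when probes had to be above background on all arrays, a filter that leaves Ckm and Ckmt2 without a value. With normexp, calls were lost for Ckmt2 at day 9 (0.11) and day 14 (0.62) and for Ldhb at day 14 (-0.99). Between the days, calls were lost for Ckm (0.52) and Ckmt1 (0.73), and the Ckm minus Ckb change was 0.43. The offset of 50 in that setting exceeds the mean Ckmt2 and Ckm signals in every group. The lost Ckmt2 and Ckm calls therefore cannot show whether those changes hold. Median scaling gave 0.97 for Ckmt1 and -0.0084 for Ckb between the days, and quantile normalization -0.82 and -0.50 for Ldhb at day 9 and day 14. The other Ldha probe gave -1.13 at day 9, a gained call. With the mean over probes, Ldhb minus Ldha changed by -0.26 at day 9 and by -0.047 between the days, the latter a change of sign. Leaving out each array in turn gave -1.06 to -0.95 for Ldhb (mESC to day 14). For the change from day 9 to day 14 it gave -0.037 to 0.31 for Ckb, 0.67 to 1.16 for Ckmt2, -0.49 to 0.047 for Ckmt2 minus Ckmt1 and -0.050 to 0.11 for Ldhb minus Ldha; with 3 against 4 arrays the exact test cannot go below 0.0571, so these isoform values carry no test. The replicate numbers are shared by the groups only as numbers: of 12 same-number pairs 1 had a correlation of deviations over 0.1 (range -0.0751 to 0.184), and 3 of 12 samples correlated best with their own number. With the replicate block, 8564, 9783 and 2876 genes were called. A slide block could not be fitted, since each slide holds 1 group. Signal over background limits Ckm and Ckmt2, whose probes were not well above background on most or all mESC arrays.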

Other observations

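Myog, a transcription factor of skeletal muscle differentiation, was lowest at day 9. It was well above background on all 4 mESC arrays, on no day 9 array and on all 4 day 14 arrays, at least 2.21-fold lower at day 9 than in mESC and 1.99 ± 0.15 higher on the log2 scale at day 14 than in mESC. Myh3, the embryonic myosin heavy chain, fell by 5.41 ± 0.23 at day 9 and then rose by 3.38 ± 0.23 from day 9 to day 14. It was well above background on only 2 of the 4 day 9 arrays, so both sizes rest partly on readings near background. The adult fast troponin Tnnt3 took another course, at least 8.24-fold higher at day 9 and at least 18.3-fold higher at day 14 than in mESC. These 3 genes were singled out after their values were seen.

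The liver-type pyruvate kinase Pklr was also lowest at day 9, at least 2.36-fold lower at day 9 than in mESC and at least 1.62-fold higher at day 14 than at day 9.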
